A study of Mus musculus with 14 samples.

Results

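Skin of 4-week-old female Tsk2 mice was compared with skin of 4-week-old female WT mice on 8 of the 14 arrays of the series, chosen by the genotype label: 4 arrays carried the label for Tsk2 mice and 4 the label for WT mice. The other 6 arrays hold Col3a1 knockout fibroblasts that had been transfected with a Tsk2 or a WT copy of the gene, and are used here only to check the tissue. Each array set the Cy5-labelled RNA of 1 mouse against a Cy3-labelled universal mouse reference. Values are log2 ratios to that reference, listed from replicate 1 to 4 within a genotype, and 19532 genes had enough of them to be tested. Tsk2 is a dominant mouse mutant with tight skin, written Tsk2/+ in the title of the study, which places the mutation in the amino-terminal propeptide of type III procollagen. The mutant allele is present in every cell of the animal. Strain, littermate status and the site on the body from which skin was taken are not given in the labels. The design text counts 3 mice of each genotype, the labels hold 4, and all were used.

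Skin is an epithelium over a collagen-rich dermis, with fat and a thin sheet of skeletal muscle, the panniculus carnosus, beneath. Hair follicles cycle: during growth, matrix cells at the base divide and build the inner root sheath and then the shaft, whose keratin filaments are embedded in keratin-associated proteins encoded by the Krtap genes. Mouse follicles re-enter growth in a wave across the body in the weeks after birth, so that skin of young mice can differ in follicle stage between sites and animals. In a sample of whole skin, fewer cells of a type and less RNA per cell cannot be told apart, which holds for every value below.

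The label of skin was borne out by its markers. The mean over 12 genes of suprabasal epidermis was 4.34 to 5.23 in Tsk2 skin and 4.13 to 4.74 in WT skin, against -0.28 to -0.11 in the fibroblast arrays. Markers of skeletal muscle averaged 3.75 to 4.63 in Tsk2 skin and 2.95 to 3.22 in WT skin, so all 8 samples held muscle. Cartilage genes lay near the level of the reference, at 0.02 to 0.36 in Tsk2 skin and -0.17 to 0.06 in WT skin.

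WT replicate 4 stood apart from the other WT mice. Over all genes its values correlated with those of the Tsk2 mice at Pearson's r of 0.830 to 0.907 and with those of the other WT mice at 0.790 to 0.850, as a description across genes. The other WT mice correlated among themselves at 0.817 to 0.886 and with the Tsk2 mice at 0.696 to 0.835. Of the means of the 41 gene lists described below, 23 placed WT replicate 4 beyond the other WT mice on the side of the Tsk2 mice. WT replicate 2 held values of exactly 0 for 30.1% of probes, against 0.758% to 9.49% on the other skin arrays. Values that recur 50 times or more on an array, read here as a mark of dim probes, made up 33.8% to 46.7% of probes on each skin array.

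In all, 568 of the 19532 genes (2.91%) passed an adjusted p of 0.05 in limma, of which 373 (1.91%) were higher and 195 (0.998%) lower in Tsk2 skin. The 8 values did not overlap between genotypes for 567 of these genes, and for 9.33% of all genes above and 6.75% below. Differences lay above 0 for 10297 of the 19532 genes and below 0 for 9229. The counts of list members given below are to be read beside these shares of all genes. Falls were larger than rises: the median difference was 1.19 among the genes that rose and -1.81 among those that fell, and 89 genes fell by more than 2 on the log2 scale while 27 rose by more than 2. The smallest adjusted p was 0.0228. Without Tsk2 replicate 2, 3 or 4, or WT replicate 1, 2 or 3, limma called 0 genes, with 3473 to 4145 genes at an unadjusted p under 0.05, against 4503 with all mice. Without Tsk2 replicate 1 it called 304 genes higher and 147 lower. Without WT replicate 4 it called 1013 genes higher (5.19%) and 814 lower (4.17%), 9.36% in all, among them all 373 and all 195. That mouse was the WT mouse nearest the Tsk2 mice for 446 of the 568 called genes (78.5%), against 38.6% of all genes. It is singled out below with these values known, so larger differences and lower p without it follow in part from that choice. Values without it are given as a description and not as separate support.

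**Figure D1:**
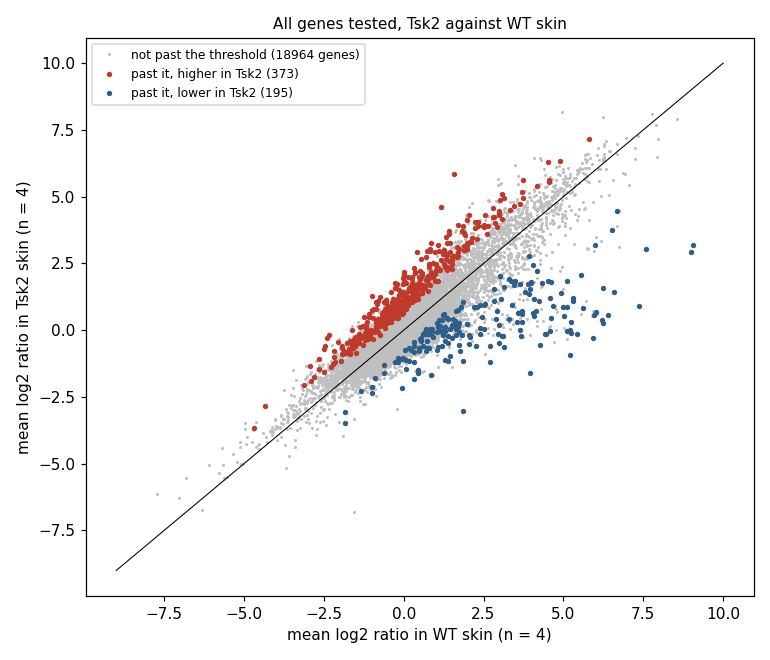
Mean log2 ratio to the universal mouse reference of each of 19532 genes in 4 Tsk2 skin samples (vertical axis) against 4 WT skin samples (horizontal axis), with the line of equality. The 373 genes past the threshold and higher in Tsk2 skin (red) lie in a band close to the line, while many of the 195 lower ones (blue) have means above 2.5 in WT skin and lie far below it.

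**Figure D2:**
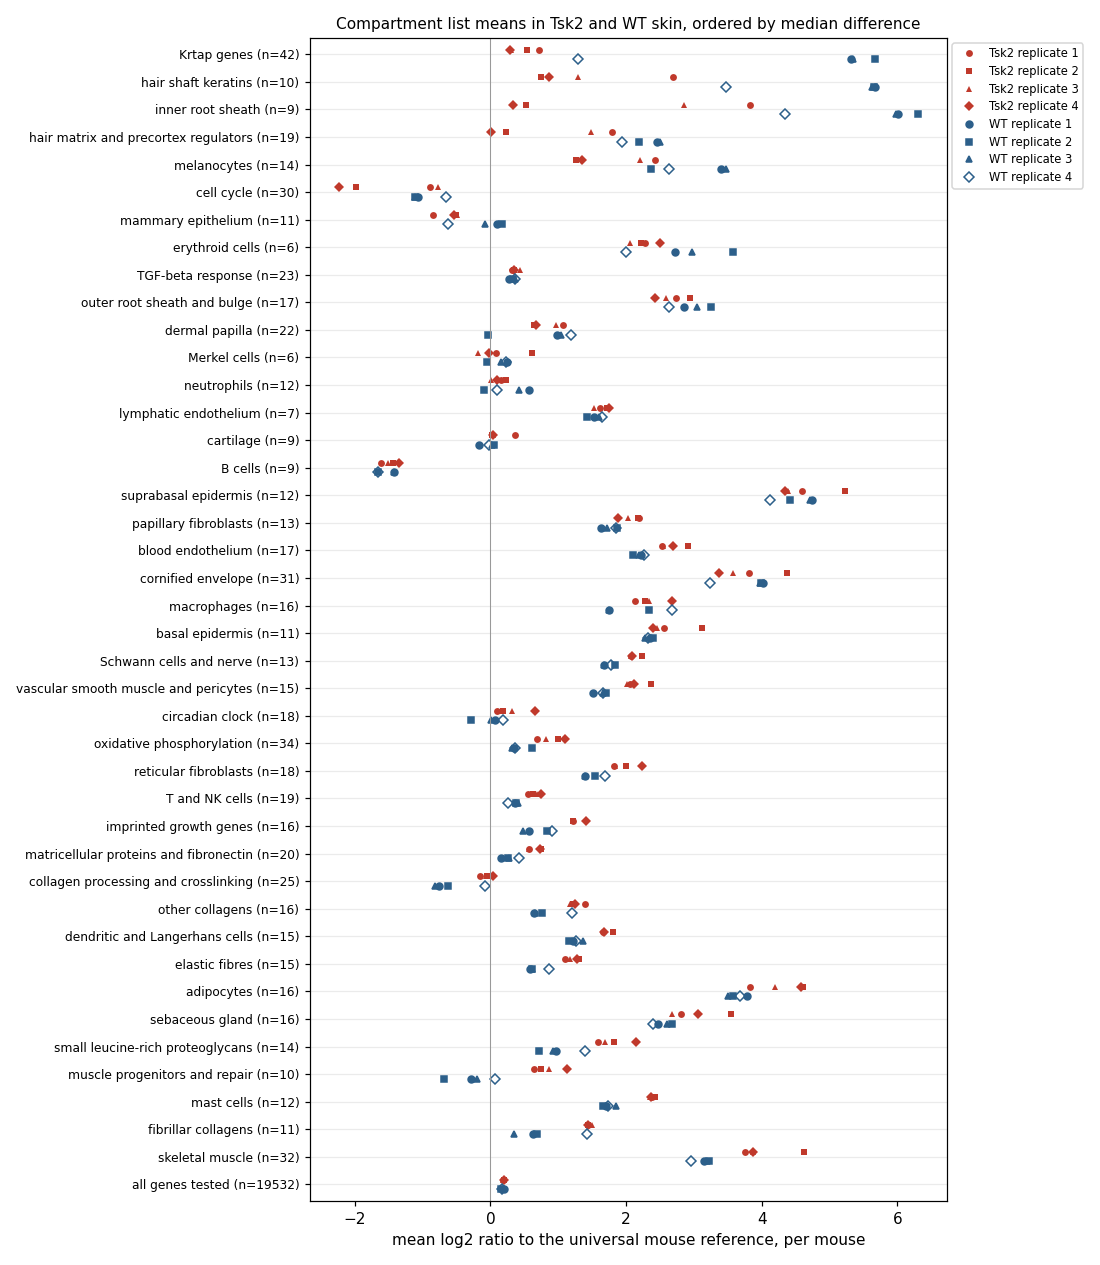
Mean log2 ratio of 41 gene lists in each mouse, ordered by the median difference of their members, with Tsk2 mice in red above and WT mice in blue below, and WT replicate 4 as an open diamond. The Krtap, hair shaft keratin, inner root sheath and hair matrix lists lie lower in all 4 Tsk2 mice, the outer root sheath and dermal papilla lists overlap between genotypes, skeletal muscle lies higher, and WT replicate 4 sits near the Tsk2 mice for the Krtap genes and the collagen lists but not for skeletal muscle.

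The Krtap genes fell furthest. Of 42 Krtap genes measured, 19 fell and 0 rose, 41 had differences below 0, and 23 had values that did not overlap between genotypes, all lower in Tsk2 skin. Their median difference was -4.17, against 0.03 over all genes tested. The mean over the 42 genes was 0.71, 0.53, 0.31 and 0.29 in Tsk2 skin, against 5.32, 5.67, 5.34 and 1.30 in WT skin. All 4 Tsk2 mice lay near the reference, 3 WT mice lay far above it, and WT replicate 4 lay 16.8% of the way from the Tsk2 mean to the mean of the other WT mice. It was below the highest Tsk2 mouse for 18 of the 42 genes. Without it, 40 Krtap genes fell and the median difference was -5.42. In Tsk2 skin 63.8% of the Krtap values were repeated ones, against 11.6% in WT skin, and what such values add to the size of the falls was not tested.

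Promoters of 4 hair shaft genes that fell are printed because these are among the genes of lowest p and their families share a promoter feature. Each line gives the 250 bases before the transcription start, 5′ to 3′ on the minus strand, from the RefSeq table of GRCm38.p6, with matches to the TATA box letters TATAAA and to the letters CTTTGA, the core bound by LEF and TCF proteins, in capitals.
Krt34: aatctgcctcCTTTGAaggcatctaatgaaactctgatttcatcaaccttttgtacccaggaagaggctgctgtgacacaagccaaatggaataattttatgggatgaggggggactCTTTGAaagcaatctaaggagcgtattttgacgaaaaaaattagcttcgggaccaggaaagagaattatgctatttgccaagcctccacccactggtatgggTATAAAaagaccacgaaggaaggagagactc
Krt36: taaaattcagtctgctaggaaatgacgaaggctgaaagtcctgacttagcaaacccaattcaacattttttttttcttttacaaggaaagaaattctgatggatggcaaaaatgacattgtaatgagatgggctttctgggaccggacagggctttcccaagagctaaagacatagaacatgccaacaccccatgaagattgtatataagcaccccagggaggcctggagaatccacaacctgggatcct
Krtap4-16: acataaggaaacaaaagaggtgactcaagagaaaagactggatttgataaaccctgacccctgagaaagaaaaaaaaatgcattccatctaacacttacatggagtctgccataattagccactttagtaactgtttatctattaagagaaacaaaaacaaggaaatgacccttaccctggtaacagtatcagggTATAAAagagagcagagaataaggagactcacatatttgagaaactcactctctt
Krtap8-1: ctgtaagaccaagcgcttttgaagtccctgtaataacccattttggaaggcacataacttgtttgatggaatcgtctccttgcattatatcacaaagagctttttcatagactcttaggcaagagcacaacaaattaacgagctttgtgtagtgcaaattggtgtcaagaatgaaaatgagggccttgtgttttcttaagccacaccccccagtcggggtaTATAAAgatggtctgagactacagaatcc
The window of Krt34 is chr11:100041555-100041804 and that of Krt36 chr11:100105627-100105876, within the type I keratin cluster. That of Krtap4-16 is chr11:99851606-99851855 and that of Krtap8-1 chr16:89487953-89488202. TATAAA starts 31 bases before the start in Krt34, 55 in Krtap4-16 and 29 in Krtap8-1. CTTTGA stands 133 and 240 bases before the start in Krt34 and has no match in the other windows. Searched on both strands, TATAAA was found in 30 of the 39 Krtap promoters in the table and in 5 of 7 hair shaft keratin promoters, against 12.4% of all 32851 promoters. CTTTGA was found in 9 of the 39 and 4 of the 7, against 13.8% of all, but in only 1 of 9 inner root sheath promoters. Among genes past the threshold TATAAA was in 37 of 156 promoters of genes that fell and 27 of 288 of genes that rose. CTTTGA was in 18 of the 156 and 36 of the 288, both smaller shares than that of all promoters. The genes that fell include Krtap genes and hair shaft keratins, so their counts overlap the family counts and are not a separate result. A match describes the letters and is not evidence of binding.

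Krtap4-16, a Krtap gene whose promoter is printed above, had values of 1.11, 0.90, 1.02 and 0.51 in Tsk2 skin, against 5.51, 5.94, 5.55 and 3.44 in WT skin. Its groups were far apart, with a difference of -4.23 ± 0.50 (SE; adjusted p = 0.0229), and WT replicate 4 lay between the Tsk2 mice and the other WT mice. Krtap8-1, of a glycine-tyrosine-rich family, had 0.90, 1.15, -0.07 and 0.36 in Tsk2 skin, against 4.06, 4.30, 3.87 and 2.59 in WT skin, a difference of -3.12 ± 0.41 (adjusted p = 0.0229). Krtap5-2 and Krtap5-1, cysteine-rich members, fell by 4.55 and 5.36 on the log2 scale. The falls of largest size were in Krtap4-2, at -6.25 ± 1.21 (adjusted p = 0.0384), Krtap4-13, at -5.96, Krtap9-3, at -5.85, and Krtap21-1, at -5.58. Krtap21-1 shows how much WT replicate 4 adds to the spread: its values were -0.04, -0.40, -0.04 and -0.15 in Tsk2 skin, against 6.70, 6.90, 6.56 and 1.53 in WT skin. Without that mouse the difference was -6.88 (adjusted p = 3.18e-06 in limma), against adjusted p = 0.0393 with it. Krtap6-1, also glycine- and tyrosine-rich, had an adjusted p of 0.0330 with that mouse and 4.08e-06 without it. Krtap22-2 and Krtap28-13 fell by 4.79 and 2.90. Only Krtap20-2 had a difference above 0, at 1.41, and it did not pass the test and was listed at 0 in Tsk2 replicate 1 and WT replicate 2.

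The keratins of the hair shaft fell with them. Of 10 measured, 7 fell and 10 had differences below 0, with a median of -3.74. Their mean was 2.69, 0.74, 1.29 and 0.86 in Tsk2 skin, against 5.67, 5.65, 5.62 and 3.47 in WT skin. Here Tsk2 replicate 1 was the highest of its group, and WT replicate 4 lay 48.8% of the way to the other WT mice. Krt34, a type I keratin of the cortex, had 2.19, -0.50, 0.45 and 0.51 in Tsk2 skin, against 6.30, 6.95, 6.44 and 4.37 in WT skin, a difference of -5.35 ± 0.67 (adjusted p = 0.0229). Krt33a, also type I, had 5.13, 2.63, 2.45 and 2.50 in Tsk2 skin, against 10.01, 9.26, 10.23 and 6.77 in WT skin, which is 59.4-fold lower on average in Tsk2 skin. Krt36 had 1.07, -0.43, 0.13 and 0.51 in Tsk2 skin, against 4.16, 4.20, 4.01 and 2.42 in WT skin, with no overlap and a difference of -3.38 (adjusted p = 0.0229). Krt86, a type II partner, fell by 5.15, Krt33b by 4.07, Krt31 by 3.40 and Krt82, found in the shaft cuticle, by 4.58. The 3 members that did not pass were Krt84 at -2.60, Krt35 at -1.63 and Krt32 at -1.03. Krt35, which is made early in the forming shaft, had 4.38, 0.90, 4.62 and 1.38 in Tsk2 skin, against 4.78, 4.38, 4.66 and 4.0 in WT skin: Tsk2 replicates 1 and 3 overlapped the WT mice and replicates 2 and 4 lay far below. In Tsk2 skin 38.8% of the values of these keratins were repeated ones, against 0 in WT skin.

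**Figure D3:**
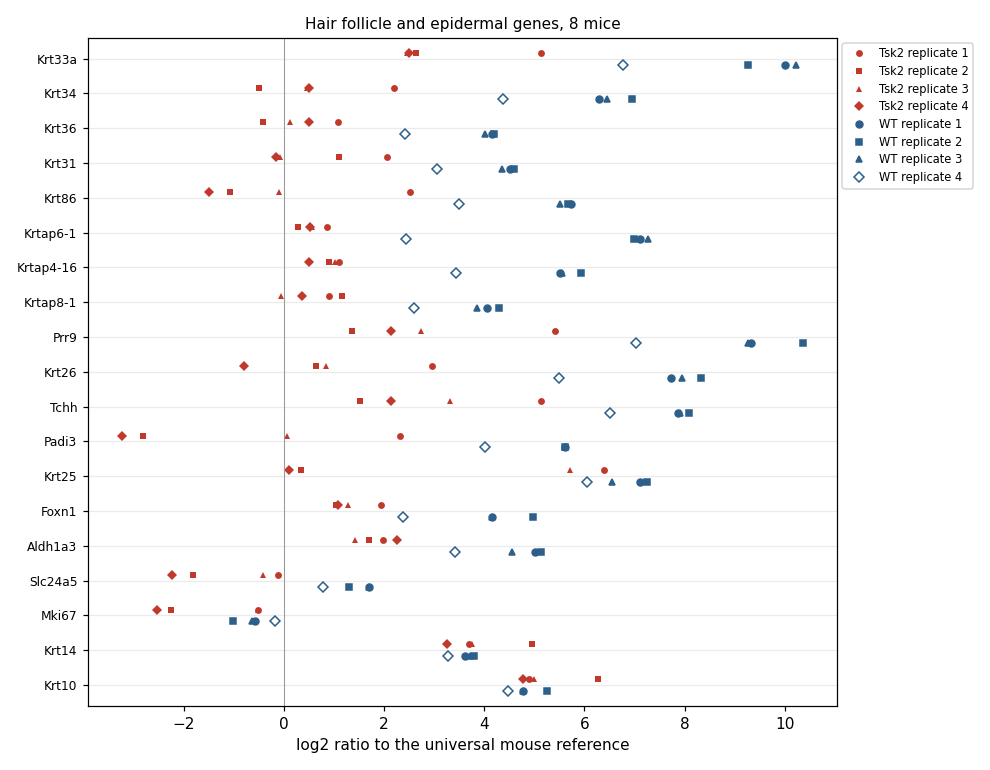
Log2 ratio to the universal mouse reference of hair follicle genes in each of the 4 Tsk2 mice (red, upper) and 4 WT mice (blue, lower, WT replicate 4 as an open diamond). Shaft genes such as Krt33a, Krt34 and the Krtap genes plotted separate all Tsk2 from all WT mice, whereas Krt25 splits the Tsk2 mice, with replicates 1 and 3 at 6.39 and 5.71 and replicates 2 and 4 at 0.33 and 0.10.

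The inner root sheath, the sleeve that moulds the growing shaft, divided the Tsk2 mice. Of 9 genes, 4 fell and 9 had differences below 0, with a median of -3.61. Their mean was 3.83, 0.53, 2.86 and 0.33 in Tsk2 skin, against 6.01, 6.30, 5.99 and 4.34 in WT skin. Tsk2 replicates 1 and 3 stood between WT replicate 4 and Tsk2 replicates 2 and 4. Krt26, an inner root sheath keratin, had 2.96, 0.64, 0.83 and -0.79 in Tsk2 skin, against 7.74, 8.33, 7.94 and 5.49 in WT skin, with no overlap and a difference of -6.46 ± 0.84 (adjusted p = 0.0229). Repeated values made up 37.5% of those of Krt26, and over the 9 genes 40.3% in Tsk2 skin against 2.78% in WT skin. Padi3, which citrullinates trichohyalin and other follicle proteins, had 2.31, -2.81, 0.06 and -3.23 in Tsk2 skin, against 5.62, 5.62, 5.61 and 4.01 in WT skin, a difference of -6.13 (adjusted p = 0.0344). Trichohyalin itself, encoded by Tchh, fell by 4.57, and the transglutaminase Tgm6 by 3.33. The other sheath keratins measured did not pass: Krt25 had 6.39, 0.33, 5.71 and 0.10 in Tsk2 skin, against 7.11, 7.24, 6.56 and 6.05 in WT skin. Krt71 had 6.56, 1.41, 6.05 and 1.52 in Tsk2 skin, against 7.08, 6.27, 7.03 and 6.32 in WT skin, and Krt27 differed by -2.82. In Krt25 and Krt71, Tsk2 replicates 1 and 3 came within 1 log2 unit of the lowest WT mouse or overlapped the WT mice, while replicates 2 and 4 were several log2 units lower.

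The mean over the regulators of the hair matrix split the Tsk2 mice in the same way. It was 1.80, 0.24, 1.48 and 0.003 in Tsk2 skin, against 2.46, 2.18, 2.50 and 1.95 in WT skin. Not every member followed this split: Bmp2 had 1.62, 2.03, 2.04 and 2.04 in Tsk2 skin, and in Foxn1 replicate 3 lay near replicates 2 and 4. Of 19 regulators, 1 fell and 0 rose, 10 did not overlap and were lower in Tsk2 skin, and 18 had differences below 0, with a median of -1.41. Foxn1, the transcription factor mutated in nude mice and needed for shaft keratinization, was the member that passed, with 1.95, 1.04, 1.29 and 1.07 in Tsk2 skin, against 4.15, 4.96, 4.16 and 2.37 in WT skin, a difference of -2.57 ± 0.50 (adjusted p = 0.0392). Without WT replicate 4, 7 members fell. Hoxc13, which drives hair keratin genes, had 1.49, -0.76, 1.27 and -0.30 in Tsk2 skin, against 3.12, 2.70, 3.14 and 2.04 in WT skin (adjusted p = 0.0539), with no overlap. The homeobox gene Dlx3 had 3.03, 0.72, 2.41 and 0.43 in Tsk2 skin, against 3.95, 5.63, 4.48 and 3.25 in WT skin (adjusted p = 0.0690), also without overlap. Msx2, another homeobox gene of the matrix, had 5.07, 2.32, 4.61 and 1.94 in Tsk2 skin, against 6.38, 6.51, 6.26 and 4.95 in WT skin, so that Tsk2 replicate 1 was just above WT replicate 4. Lef1, the partner of beta-catenin in Wnt signalling, and Wnt10b, a Wnt ligand of growing follicles, differed by -1.63 and -1.34, without overlap, and did not pass. Shh, the matrix ligand, differed by -0.90, and its targets Ptch1 and Gli1 by -0.09 and 0.08. The small difference of Gli1 hides a wide spread, with 2.74, 0.92, 2.15 and 0.81 in Tsk2 skin, against 1.01, 1.88, 1.09 and 2.33 in WT skin. Tsk2 replicates 2 and 4 lay below all WT mice and replicate 1 above them. For 14 of the 19 regulators, 8 of 10 shaft keratins and 7 of 9 sheath genes the highest Tsk2 value was that of replicate 1.

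The named falls outside the lists, a group set by size and p and not by function, included Prr9, S100a7a, Ly6g6d, Alcam and Piwil2. Prr9, a proline-rich gene of the shaft, had 5.41, 1.36, 2.74 and 2.15 in Tsk2 skin, against 9.34, 10.36, 9.27 and 7.02 in WT skin, with a difference of -6.08 ± 0.94 (adjusted p = 0.0254). S100a7a, a calcium-binding S100 gene, had -0.78, -2.84, -1.32 and -1.45 in Tsk2 skin, against 4.15, 5.69, 4.45 and 1.49 in WT skin, and Ly6g6d, of the Ly6 family, had 2.47, 1.03, 1.03 and 1.01 in Tsk2 skin, against 5.28, 5.39, 5.33 and 3.68 in WT skin. In both, WT replicate 4 lay between the Tsk2 mice and the other WT mice. Aldh1a3, which makes retinoic acid, was the 1 of 17 outer root sheath and bulge genes that fell, with 1.99, 1.71, 1.43 and 2.26 in Tsk2 skin, against 5.02, 5.14, 4.56 and 3.42 in WT skin (adjusted p = 0.0229). That list had a median of -0.11 with 7 members above 0. Cd34, a marker of bulge stem cells that is also made in vessels and fibroblasts, had 2.04, 2.54, 2.39 and 2.69 in Tsk2 skin, against 0.72, 1.27, 0.79 and 1.87 in WT skin, higher without overlap but at adjusted p = 0.0512. Of 22 dermal papilla genes, 0 passed and the median was -0.03. Without WT replicate 4, 1 of them rose and the median was 0.21. Among these, Rspo2, a Wnt enhancer, differed by -1.48. Sostdc1, a Wnt and BMP antagonist, was listed at 0 in WT replicate 2 and is not read. Alcam, an adhesion molecule, and Piwil2, a piRNA-pathway gene, fell by 1.19 and 1.49, the second with repeated values at 68.8% of its measurements.

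Of 14 melanocyte genes 1 fell and 13 had differences below 0, with a median of -1.0. Slc24a5, a melanosome ion exchanger, had -0.11, -1.81, -0.42 and -2.24 in Tsk2 skin, against 1.70, 1.30, 1.70 and 0.78 in WT skin, a difference of -2.52 ± 0.48 (adjusted p = 0.0372). Without WT replicate 4, 4 of the 14 fell. Slc45a2, a melanosome transporter, had 2.73, 0.37, 2.48 and 0.78 in Tsk2 skin, against 3.85, 4.23, 4.18 and 2.90 in WT skin and did not pass (adjusted p = 0.0713), although the groups did not overlap. Tyrp1, a pigment enzyme, was listed at 0 in WT replicate 2, against 6.32 to 7.15 in the other WT mice, so its difference is not read here. Sox10, which marks the lineage and glia, differed by 0.32. Cell cycle genes passed in 0 of 30 cases, with 29 differences below 0 and a median of -0.44. Their mean was -0.89, -1.98, -0.77 and -2.23 in Tsk2 skin, against -1.08, -1.11, -1.11 and -0.66 in WT skin. Tsk2 replicates 2 and 4 lay below all other mice and replicates 1 and 3 among the WT range. Mki67, present in dividing cells, had -0.51, -2.26, -0.51 and -2.54 in Tsk2 skin, against -0.57, -1.01, -0.64 and -0.18 in WT skin, the same split. It was not tested whether the lower sheath, matrix and cell cycle levels of replicates 2 and 4 have 1 source.

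The interfollicular epidermis gave 1 call. Of 12 suprabasal genes 0 passed, with a median of 0.18, and of 11 basal genes 1 rose. Krt10, the main suprabasal type I keratin, had 4.90, 6.27, 5.0 and 4.78 in Tsk2 skin, against 4.78, 5.25, 4.78 and 4.47 in WT skin, and Krt14, its basal counterpart, had 3.70, 4.96, 3.75 and 3.26 in Tsk2 skin, against 3.63, 3.79, 3.71 and 3.28 in WT skin. Both pairs of groups overlapped, and Tsk2 replicate 2 was the highest mouse in each. Dst, whose epithelial form anchors keratin to hemidesmosomes, rose by 0.76 ± 0.17 (adjusted p = 0.0495), though other forms of Dst are made in nerve and muscle. Of 31 cornified envelope genes 0 passed, with a median of 0.29. Without WT replicate 4, 6 of them fell, among them Sprr1a and Sprr2h, small proline-rich envelope proteins. Sprr2h had 0.99, 0.80, 0.54 and 0.15 in Tsk2 skin, against 3.38, 4.06, 3.90 and 0.91 in WT skin, so that WT replicate 4 lay within the Tsk2 range. S100a8, an alarmin of neutrophils and of stressed keratinocytes, had -1.69, -1.28, -2.02 and -1.69 in Tsk2 skin, against 1.59, 1.87, 1.55 and -1.33 in WT skin, with the same arrangement, and an adjusted p of 0.0668 with all mice against 0.000181 without WT replicate 4. Filaggrin (Flg) and hornerin (Hrnr), late barrier proteins, differed by 0.93 and 1.35 and did not pass. WT replicate 2 was the lowest mouse for both, and without it the differences were 0.04 and 0.85.

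The skeletal muscle genes that passed were all higher in Tsk2 skin. Of 32 measured, 4 rose and 0 fell, 16 were higher without overlap, and 31 had differences above 0, with a median of 0.89. The mean was 3.75, 4.63, 3.88 and 3.88 in Tsk2 skin, against 3.15, 3.22, 3.20 and 2.95 in WT skin. Tsk2 replicate 2 was the highest for 26 of the 32 genes. In the list mean WT replicate 4 was the lowest WT mouse, on the far side from the Tsk2 mice. It lay below the other WT mice for 18 of the 32 genes and above them for 8. In the 4 genes that rose, Eno3, Actn3, Ttn and Cacna1s, WT replicate 4 was instead the highest WT mouse, on the side of the Tsk2 mice. Without that mouse the median was 0.77, with 6 genes higher and 1 lower. Eno3, the muscle enolase, had 3.57, 4.51, 4.14 and 5.01 in Tsk2 skin, against 1.92, 1.78, 1.84 and 2.60 in WT skin, a difference of 2.27 ± 0.32 (adjusted p = 0.0229), or 4.83-fold. Actn3, the alpha-actinin of fast fibres, had 4.55, 5.92, 4.88 and 5.01 in Tsk2 skin, against 3.14, 3.03, 2.59 and 3.57 in WT skin, and Ttn, the titin gene, had 3.66, 4.04, 3.87 and 4.06 in Tsk2 skin, against 2.39, 1.66, 2.53 and 2.70 in WT skin. Both groups were separate in each case, although the probes of Ttn disagreed in sign among themselves. Repeated values made up 28.75% of those of Ttn and exact zeros 10%, and WT replicate 2 was its lowest mouse. Cacna1s, the voltage sensor of excitation, rose by 1.75 ± 0.36 (adjusted p = 0.0456), with repeated values at 31.25% of measurements. Acta1, the sarcomeric actin, had 5.49, 6.58, 5.43 and 5.50 in Tsk2 skin, against 4.72, 4.59, 4.45 and 4.52 in WT skin, without overlap and just short of the threshold (adjusted p = 0.0519). Ckm, the muscle creatine kinase, had 5.94, 7.29, 6.03 and 5.74 in Tsk2 skin, against 5.82, 5.84, 5.79 and 4.91 in WT skin, which overlapped. Tnni1, the slow-fibre troponin, was the 1 gene with a difference below 0, at -1.02. How much muscle each piece of skin held was not measured otherwise, and its share in these values was not tested.

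Genes of muscle progenitors, synapse and repair gave rises as well. Of 10 measured, 3 rose, 6 were higher without overlap, and the median was 0.81. Myog, the transcription factor of differentiating myoblasts, had 1.40, 2.08, 2.41 and 2.78 in Tsk2 skin, against 0.04, -0.36, -0.46 and 0.88 in WT skin, a difference of 2.14 ± 0.37 (adjusted p = 0.0305). Cdh15, the cadherin of satellite cells and myotubes, had 1.40, 1.75, 1.55 and 2.32 in Tsk2 skin, against -0.30, -0.33, -0.78 and 0.29 in WT skin (adjusted p = 0.0229). Chrna1, the acetylcholine receptor subunit, and Rapsn, which clusters that receptor at the synapse, rose by 1.70 and 1.77. Myod1, which commits cells to muscle, had 0.34, 0.52, 1.05 and 1.44 in Tsk2 skin, against 0.09, 0.20, -0.08 and 0.18 in WT skin and did not pass (adjusted p = 0.122). The satellite cell marker Pax7 differed by -0.26. Myh3, the embryonic myosin, had -0.10, -0.43, 0.76 and 1.04 in Tsk2 skin, against -1.76, -2.44, -0.57 and -0.97 in WT skin, without overlap, at adjusted p = 0.0766. Myf6 was listed at 0 in WT replicate 2 and is not read. Further muscle genes among the rises of largest size or lowest p were Asb5, Cacng1, a calcium channel subunit, Ankrd23, Myadml2 and Camk2b, with differences of 2.27, 2.24, 2.22, 2.16 and 1.21. Repeated values made up 50% of those of Camk2b.

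**Figure D4:**
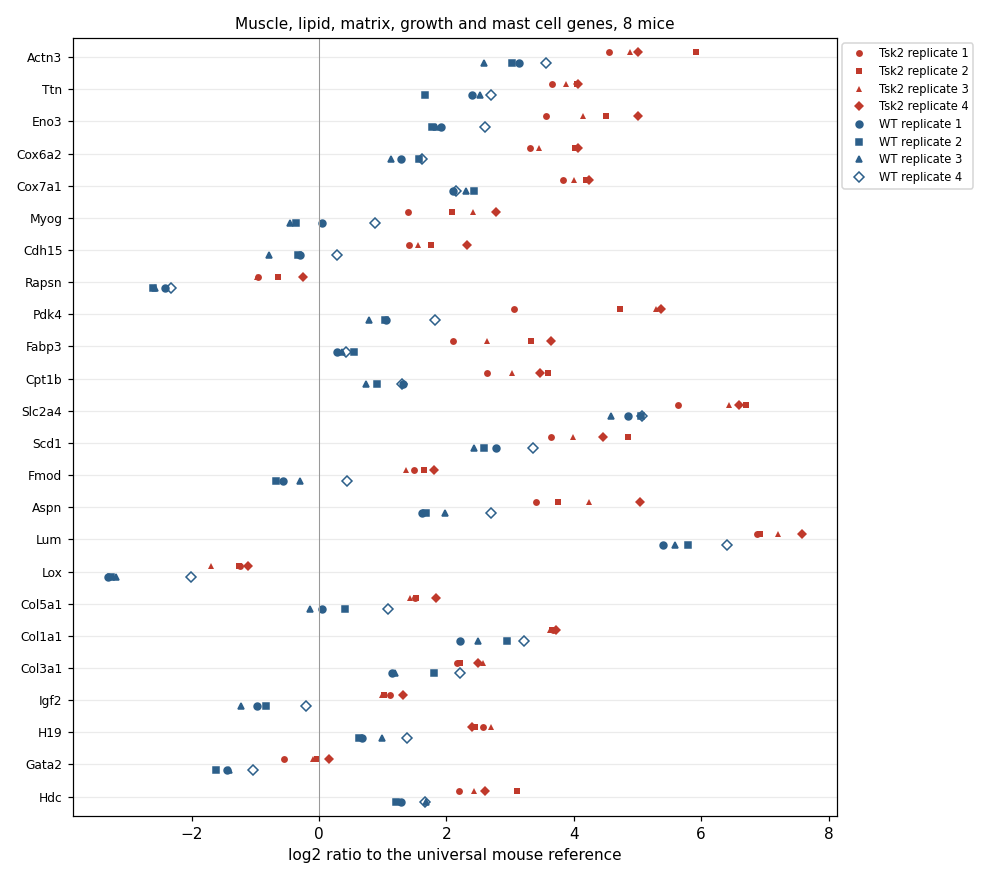
Log2 ratio to the universal mouse reference of muscle, lipid, matrix, growth and mast cell genes in each of the 4 Tsk2 mice (red, upper) and 4 WT mice (blue, lower, WT replicate 4 as an open diamond). Pdk4, Fabp3, Cpt1b, Eno3 and Cox6a2 do not overlap between the genotypes, whereas WT replicate 4 comes near the Tsk2 mice for Col1a1, Col3a1 and Col5a1.

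Genes of fuel use were among those named for the size or p of their rise, and were grouped here after their values were seen. Pdk4, the kinase that shuts pyruvate dehydrogenase and favours fat burning, had 3.06, 4.73, 5.29 and 5.37 in Tsk2 skin, against 1.05, 1.03, 0.78 and 1.82 in WT skin, a difference of 3.44 ± 0.50 (adjusted p = 0.0243), or 10.9-fold. All 4 Tsk2 mice exceeded all WT mice, and Tsk2 replicate 1 was the lowest of its group. Fabp3, the fatty acid binding protein of muscle and heart, had 2.10, 3.33, 2.63 and 3.65 in Tsk2 skin, against 0.28, 0.54, 0.37 and 0.42 in WT skin (adjusted p = 0.0229). Cpt1b, which brings fatty acids into muscle mitochondria, had 2.63, 3.60, 3.03 and 3.47 in Tsk2 skin, against 1.32, 0.91, 0.74 and 1.30 in WT skin, a difference of 2.11 ± 0.25 (adjusted p = 0.0229). Pfkm, the muscle phosphofructokinase, and Adssl1, the muscle adenylosuccinate synthase, rose by 2.02 and 2.21. Of 34 oxidative phosphorylation genes, 3 rose, 20 were higher without overlap, and the median was 0.42, with 32 differences above 0. Cox6a2, the cytochrome oxidase subunit of heart and muscle, had 3.31, 4.01, 3.46 and 4.06 in Tsk2 skin, against 1.29, 1.57, 1.14 and 1.61 in WT skin, a difference of 2.31 ± 0.22 (adjusted p = 0.0228). Cox7a1, also a muscle form, had 3.83, 4.19, 4.0 and 4.24 in Tsk2 skin, against 2.10, 2.43, 2.31 and 2.15 in WT skin, and Ndufa5, a subunit of complex I made in most cells, rose by 0.81. Cox6a2 and Cox7a1 had larger differences than the other members, whose values ran from -0.21 in Cox6b1 to 0.81 in Ndufa5. Cox8b, another form of heart and muscle, had 6.81, 7.79, 6.79 and 6.44 in Tsk2 skin, against 6.15, 7.33, 5.95 and 5.65 in WT skin, with overlap and a difference of 0.69. The share of muscle in the list's change was not tested.

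Lipid genes gave 4 rises in fat and sebaceous gland lists. All 16 adipocyte genes had differences above 0, with a median of 0.62. Of them 1 rose (6.25%, against 1.91% of all genes). Higher without overlap were 3 of the 16, a larger share than the 9.33% of all genes. Slc2a4, the insulin-responsive glucose transporter of fat and muscle, had 5.64, 6.71, 6.44 and 6.59 in Tsk2 skin, against 4.85, 5.06, 4.59 and 5.07 in WT skin, a difference of 1.45 ± 0.25 (adjusted p = 0.0305). Adipoq, made by adipocytes alone, had 5.81, 7.0, 5.88 and 5.51 in Tsk2 skin, against 6.0, 5.75, 5.72 and 4.90 in WT skin, with overlap and adjusted p = 0.482. Of 16 sebaceous gland genes 3 rose, with a median of 0.62. Scd1, a fatty acid desaturase, had 3.64, 4.85, 3.98 and 4.45 in Tsk2 skin, against 2.78, 2.60, 2.44 and 3.35 in WT skin (adjusted p = 0.0474), and its relative Scd3, found in sebocytes, rose by 1.11. Acsbg1, an acyl-CoA synthetase, had 2.87, 3.55, 2.79 and 3.47 in Tsk2 skin, against 1.99, 1.76, 1.90 and 2.24 in WT skin (adjusted p = 0.0333). Markers narrower to the gland did not pass, with Mc5r at -0.70 and Awat2 at 0.64.

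The collagen genes that passed were all higher in Tsk2 skin, and WT replicate 4 lay near the Tsk2 mice. Of 11 fibrillar collagen genes 1 rose (9.09%, against 1.91% of all genes) and 9 had differences above 0, with a median of 0.82. Their mean was 1.45, 1.44, 1.50 and 1.44 in Tsk2 skin, against 0.63, 0.68, 0.35 and 1.43 in WT skin, so WT replicate 4 lay just below the 4 Tsk2 mice while the other WT mice lay well under them. Without WT replicate 4, 6 rose and the median was 1.07. Col5a1, whose chain starts and limits the width of type I fibrils, had 1.50, 1.52, 1.43 and 1.83 in Tsk2 skin, against 0.05, 0.40, -0.14 and 1.08 in WT skin, a difference of 1.23 ± 0.26 (adjusted p = 0.0489). Col3a1, the gene mutated in Tsk2, had 2.17, 2.22, 2.58 and 2.50 in Tsk2 skin, against 1.14, 1.80, 1.20 and 2.21 in WT skin, a difference of 0.78 ± 0.26 (adjusted p = 0.122). Its groups overlapped by the WT replicate 4 value, without which the adjusted p was 0.0324. Col1a1, the main chain of type I collagen, had 3.68, 3.66, 3.63 and 3.73 in Tsk2 skin, against 2.21, 2.96, 2.49 and 3.22 in WT skin without overlap (adjusted p = 0.0590), and Col1a2 had 1.82, 2.16, 2.14 and 2.30 in Tsk2 skin, against 0.96, 1.48, -0.16 and 1.99 in WT skin (adjusted p = 0.177). Repeated values made up 33.3% of those of Col3a1 and 18.8% of those of Col1a2. Of 16 other collagens 2 rose, Col7a1, the anchoring fibril chain made by keratinocytes and fibroblasts, by 1.36 ± 0.28 (adjusted p = 0.0452), and Col6a2, of microfibrillar type VI, by 1.20 ± 0.25 (adjusted p = 0.0476).

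The enzymes and partners of collagen gave rises and no fall. Of 25 processing and crosslinking genes 2 rose, with a median of 0.53, and 10 rose without WT replicate 4, which lay 4.27% of the way from the Tsk2 mean to the mean of the other WT mice. Lox, the oxidase that starts collagen and elastin crosslinks, had -1.24, -1.26, -1.69 and -1.11 in Tsk2 skin, against -3.32, -3.26, -3.20 and -2.01 in WT skin, a difference of 1.62 ± 0.31 (adjusted p = 0.0360). Tram2, needed for type I collagen synthesis, rose by 1.09. Serpinh1, the collagen chaperone Hsp47, had 1.42, 1.73, 1.95 and 1.75 in Tsk2 skin, against 0.01, -0.002, -0.26 and 1.92 in WT skin: WT replicate 4 lay within the Tsk2 range and the adjusted p was 0.132. Of 14 small leucine-rich proteoglycans 3 rose and 13 had differences above 0. Fmod, which regulates fibril width, had 1.49, 1.64, 1.36 and 1.80 in Tsk2 skin, against -0.56, -0.67, -0.30 and 0.44 in WT skin, a difference of 1.85 ± 0.25 (adjusted p = 0.0229). Aspn, a binder of collagen and TGF-beta, had 3.41, 3.75, 4.23 and 5.05 in Tsk2 skin, against 1.62, 1.68, 1.97 and 2.71 in WT skin, and Lum, lumican, had 6.88, 6.93, 7.21 and 7.58 in Tsk2 skin, against 5.41, 5.79, 5.59 and 6.40 in WT skin. All 3 separated the genotypes, with WT replicate 4 the highest WT mouse. Decorin (Dcn) did not, at 1.30 (adjusted p = 0.0997). Of 15 elastic fibre genes 2 rose, Fbln1 by 1.15 ± 0.18 (adjusted p = 0.0244) and Ltbp2, a fibrillin-binding protein, by 1.42 ± 0.23 (adjusted p = 0.0261), and elastin (Eln) differed by 1.01 without overlap (adjusted p = 0.0570). Of 20 matricellular genes 1 rose (5.0%, against 1.91% of all genes), Tgfbi, by 1.01 ± 0.20 (adjusted p = 0.0436). Periostin (Postn) differed by 0.31.

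**Figure D5:**
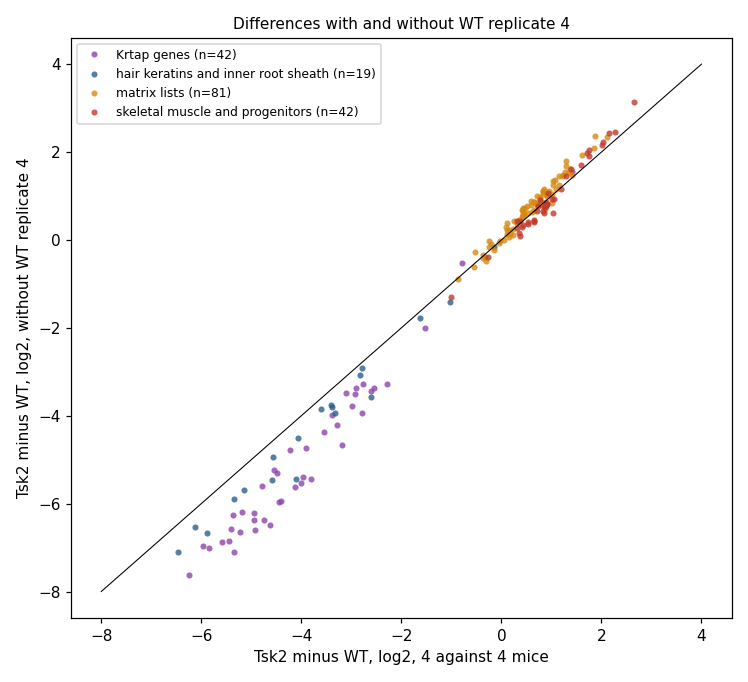
Difference between Tsk2 and WT skin (log2) with all 8 mice on the horizontal axis and without WT replicate 4 on the vertical axis, for 42 Krtap genes, 19 hair keratin and inner root sheath genes, 81 genes of 5 matrix lists and 42 muscle genes, with the line of equality. Nearly all Krtap genes lie below the line, matrix genes mostly above it and muscle genes on or near it.

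TGF-beta response genes moved in both directions. Of 23, 3 rose and 1 fell, with a median of -0.16. The members that rose were Ltbp2 and Tgfbi, given above, and Tgfb3, a TGF-beta ligand, with 0.44, 0.39, 0.54 and 0.50 in Tsk2 skin, against -0.65, -0.95, -0.35 and -0.24 in WT skin (adjusted p = 0.0320). Bambi, a decoy receptor that dampens TGF-beta and BMP signals, fell, with 1.49, 0.43, 1.38 and 1.04 in Tsk2 skin, against 2.48, 2.67, 3.21 and 2.98 in WT skin, a difference of -1.75 ± 0.27 (adjusted p = 0.0244) and repeated values at 43.8% of measurements. Smad7, the feedback inhibitor, had -0.19, -1.02, -0.20 and -0.37 in Tsk2 skin, against 1.08, 1.45, 1.10 and 0.04 in WT skin, lower without overlap (adjusted p = 0.0603). Ccn2, a TGF-beta target also called Ctgf, differed by 0.76. Of the papillary fibroblast genes, 1 of 13 rose, Col7a1 (7.69%, against 1.91% of all genes). Of 18 reticular fibroblast genes 0 passed, with a median of 0.43.

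Igf2 and its neighbour H19, imprinted genes of fetal growth that are shut off in most tissues after birth, were higher in every Tsk2 mouse. Igf2 had 1.12, 1.03, 0.98 and 1.31 in Tsk2 skin, against -0.98, -0.84, -1.23 and -0.20 in WT skin, a difference of 1.92 ± 0.23 (adjusted p = 0.0229), or 3.79-fold. H19 had 2.57, 2.45, 2.71 and 2.41 in Tsk2 skin, against 0.67, 0.62, 0.99 and 1.38 in WT skin, a difference of 1.62 ± 0.20 (adjusted p = 0.0229). The spread within Tsk2 skin was small in both, and WT replicate 4 was the highest WT mouse in both. Of 16 imprinted growth genes these 2 rose, 7 were higher without overlap and 15 had differences above 0, with a median of 0.49. Dlk1, from another imprinted cluster, had -3.29, -2.57, -2.99 and -2.42 in Tsk2 skin, against -3.39, -3.70, -3.37 and -3.92 in WT skin (adjusted p = 0.0972). Meg3, its neighbour, had 2.91, 3.25, 2.88 and 3.01 in Tsk2 skin, against 2.20, 2.13, 1.59 and 2.77 in WT skin (adjusted p = 0.0928), and neither passed.

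Among vessel and nerve lists the rises lay in vascular smooth muscle and pericytes. Of these 15 genes 3 rose (20.0%, against 1.91% of all genes), with a median of 0.37. Pdgfrb, the PDGF receptor of pericytes and fibroblasts, had 1.02, 1.48, 1.19 and 1.52 in Tsk2 skin, against -0.07, 0.03, -0.34 and 0.62 in WT skin, a difference of 1.24 ± 0.23 (adjusted p = 0.0330). Des, which encodes the intermediate filament of all muscle types, had 4.06, 4.65, 4.11 and 4.47 in Tsk2 skin, against 2.37, 2.50, 2.26 and 2.99 in WT skin (adjusted p = 0.0229), and it is not specific to vessels. Abcc9, a channel subunit of pericytes and muscle, passed (adjusted p = 0.0372) but was listed at 0 in WT replicate 2, so no fold is given. Genes more specific to smooth muscle did not pass, with Myh11 at 0.52 and Acta2 at 0.67. All 17 blood endothelial genes had differences above 0 or at 0.00, with 0 calls and a median of 0.28. Pecam1 had 0.15, 0.65, 0.35 and 0.37 in Tsk2 skin, against 0.04, -0.04, 0.14 and 0.47 in WT skin, with overlap (adjusted p = 0.473), and its probes disagreed in sign. Of 13 Schwann cell and nerve genes 0 passed. Of 6 Merkel cell genes 3 had differences above 0 and 3 below. Tubb3, a neuronal tubulin placed in that list, fell by 1.60 (adjusted p = 0.0290). Isl1, a transcription factor of Merkel cells and neurons, had 1.28, 2.25, 1.25 and 1.82 in Tsk2 skin, against 0.14, 0.14, -0.06 and 1.0 in WT skin, higher without overlap but short of the threshold (adjusted p = 0.0538), and it rose without WT replicate 4 (adjusted p = 0.0135). The keratin gene Krt20 and the channel gene Piezo2 differed by -0.37 and 0.38 and did not pass, and Atoh1 and Chga were listed at 0 in WT replicate 2 and are not read.

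Of the 3 rises among immune lists, 2 were mast cell genes. Of 12 mast cell genes 2 rose (16.7%, against 1.91% of all genes) and 5 were higher without overlap. In all 10 had differences above 0 and 2 below, with a median of 0.81. Their mean was 2.38, 2.43, 2.35 and 2.37 in Tsk2 skin, against 1.71, 1.66, 1.85 and 1.74 in WT skin, with the Tsk2 mice close together and no overlap. Gata2, a transcription factor of mast cells and other progenitors, had -0.55, -0.04, -0.10 and 0.15 in Tsk2 skin, against -1.45, -1.63, -1.42 and -1.04 in WT skin, a difference of 1.25 ± 0.20 (adjusted p = 0.0262), and Hdc, which makes histamine, had 2.19, 3.11, 2.43 and 2.60 in Tsk2 skin, against 1.29, 1.20, 1.68 and 1.66 in WT skin (adjusted p = 0.0420). The tryptase gene Tpsb2 had 2.87, 2.37, 2.99 and 2.83 in Tsk2 skin, against 1.49, 1.23, 2.08 and 2.34 in WT skin. The chymase gene Mcpt4 differed by 0.74, and neither gene passed. Cpa3 and Cma1 differed by 0.89 and 0.61, with overlap, and did not pass (adjusted p = 0.151 and 0.200). Repeated values made up 27.6% of those of the mast cell list. Of 15 dendritic and Langerhans cell genes 1 rose, Itgax, the CD11c integrin, by 0.79 ± 0.17 (adjusted p = 0.0478), and 14 had differences above 0. The member below 0 was Epcam, at -0.90 without overlap (adjusted p = 0.0588), and Cd207 differed by 0.04. Ciita, Cd209a and Clec9a, counted among the 14, were listed at 0 in WT replicate 2 and are not read. Of 19 T and NK cell genes 0 passed and 16 had differences above 0. Higher without overlap were 7 of the 19, a larger share than the 9.33% of all genes. Zap70, the T cell kinase, had -2.03, -1.62, -1.53 and -1.65 in Tsk2 skin, against -2.53, -2.57, -2.25 and -2.36 in WT skin (adjusted p = 0.0539). The member of largest difference went the other way: Cd4, the co-receptor of helper T cells, had 0.08, 1.0, 0.13 and 0.54 in Tsk2 skin, against 2.31, 3.02, 2.73 and -0.002 in WT skin, with WT replicate 4 below all Tsk2 mice. Its difference of -1.58 did not pass, whereas without WT replicate 4 Cd4 was among the genes that fell, at -2.25 (adjusted p = 0.00507). Repeated values made up 50% of those of Cd4. Ptprc, present on all leukocytes, had -1.13, -0.24, -1.11 and -0.93 in Tsk2 skin, against -2.04, -1.54, -1.59 and -1.33 in WT skin, also without overlap (adjusted p = 0.113). Macrophage, B cell and neutrophil lists had 0 calls, with medians of 0.29, 0.14 and 0.07, and repeated values made up 65.3% of B cell measurements. Clock genes gave 0 calls in 18, with 16 differences above 0, a median of 0.40 and 4 members higher without overlap, against 9.33% of all genes. Their differences ran from -1.11 to 1.16, the highest in Per1. Per1 had 0.17, 0.68, 1.24 and 1.57 in Tsk2 skin, against -0.37, -0.50, -0.04 and -0.07 in WT skin, higher without overlap (adjusted p = 0.0697). Without WT replicate 4, 1 clock gene rose and 1 fell.

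A few rises belonged to no list. Pyy, a gut peptide hormone gene, had 2.82, 4.56, 3.47 and 2.19 in Tsk2 skin, against 0.88, 0.62, 0.87 and 1.01 in WT skin, a difference of 2.42 ± 0.44 (adjusted p = 0.0330), and Bcl2l15, a pro-apoptotic relative of Bcl2, rose by 2.16. Pkia, an inhibitor of protein kinase A, had 3.0, 3.68, 2.90 and 3.49 in Tsk2 skin, against 1.27, 1.40, 1.19 and 1.55 in WT skin (adjusted p = 0.0229). Tceal7 had 5.12, 4.87, 6.11 and 7.34 in Tsk2 skin, against 3.11, 0.00, 0.00 and 3.13 in WT skin, and Adra2c, an adrenergic receptor, had 3.53, 3.59, 3.80 and 3.70 in Tsk2 skin, against 1.72, 0.00, 1.68 and 2.23 in WT skin. WT replicate 2 is at 0 in both and WT replicate 3 in Tceal7, so their differences, although called, have no fold here.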

How the data were processed

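RNA of whole skin of 4 Tsk2 and 4 WT mice was measured on 2-colour Agilent arrays against a universal mouse reference, with 200 ng of total RNA labelled with Cy5, per the labels. The deposited values are log ratios of sample over reference, read here as log2 because their range would exceed a scanner's on the log10 scale. No source used here states how they were normalized, background-corrected or filtered. Intensities, scan dates and slides were not used here, so batches could not be examined, and the number of arrays limits precision. Of 41174 probes, 32664 had 1 platform gene symbol and were averaged per gene (11021 genes on 1 probe, 8511 on several), 45 had several symbols and 8465 are unnamed here. Columns that matched no sample numbered 0, and none held identical values.

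Genes with values on at least 3 arrays of each genotype were tested in limma 3.58.1 (R 4.3.3, lmFit and eBayes with defaults, two-sided) with Benjamini-Hochberg adjustment over 19532 genes at a threshold of 0.05. Data were simulated over 19532 genes, with independent normal noise for each gene at its spread on these arrays. With 200 genes changed, 39% of changes of 1 and 75% of changes of 2 on the log2 scale were recovered, with 5 false calls. With none changed there were 0 calls. Patterns that many genes of a mouse share, as in WT replicate 4, were not simulated, so false calls under them were not measured. The labels do not say that mice came from separate litters or cages.

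The comparison, the 41 gene lists and the named genes were chosen with earlier results of these data known. Named were, among genes past the threshold without overlap and not clone or locus names, the 12 largest rises and falls and the 10 of lowest p in each direction, then up to 6 called members of each list or the 2 of lowest p, and 14 genes whatever their values. Other genes given with values were chosen after these were seen. Members of a list that had no value are not analysed here. Alternatives covered normalization, probe choice, array weights, a fit over all 14 arrays, zeros, repeated values, moderation, genes on all arrays and leaving out each mouse. Promoters were matched by symbol in the RefSeq table, and gene IDs of 19410 genes were found in RefSeq.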

Additional observations from a re-analysis of the deposited data

Results flagged for a closer look

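Within each genotype, the mouse lying farthest from the other 3 was compared with the range of its group by Dixon's test. Over 332 groups (125 genes and 41 lists, each in both genotypes) 41 had a mouse beyond the critical value, where chance flags about 1 in 20. WT replicate 4 accounted for 24 of the 41. No explanation was tested.

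In WT skin, replicate 4 lay below the other WT mice in the hair genes and a few others, with Bpgm at 0.76, Krt31 at 3.06, Krt36 at 2.42, Krt86 at 3.51, Krtap21-1 at 1.53, Krtap22-2 at 3.19, Krtap5-1 at 2.59, Krtap5-2 at 2.34, Krtap6-1 at 2.45, Krtap9-3 at 2.96, Ly6g6d at 3.68, Padi3 at 4.01, S100a8 at -1.33 and Tchh at 6.50. It lay below them in the mean of these lists too, with Krtap genes at 1.30, cornified envelope at 3.24, hair shaft keratins at 3.47 and inner root sheath at 4.34. It lay above the other WT mice for Col7a1 at 3.25, Eno3 at 2.60, Gsn at 3.0 and Lox at -2.01, and for the list means of elastic fibres at 0.86 and cell cycle at -0.66. For the hair genes and most of the matrix genes the departure was towards the Tsk2 mice, while for the cell cycle mean it was away from them.

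In Tsk2 skin, replicate 1 was the highest for Krt33a at 5.13, Krtap5-1 at 0.69 and Ly6g6d at 2.47 and for the mean of cartilage at 0.36, and the lowest for the mean of mammary epithelium at -0.85. Tsk2 replicate 2 was the highest for Acta1 at 6.58, Krt10 at 6.27 and Krtap28-13 at 0.90, and for the means of skeletal muscle at 4.63 and Schwann cells and nerve at 2.24. Tsk2 replicate 3 was the highest for the mean of fibrillar collagens at 1.50, a small step in a narrow group, and Tsk2 replicate 4 for the mean of imprinted growth genes at 1.41. Among the remaining WT mice, replicate 3 was the lowest for Cenpe at -1.27 and Col9a3 at -0.36 and the highest for Scn7a at 0.67. WT replicate 2 was the lowest for Ms4a1 at -6.21 and the highest for the mean of oxidative phosphorylation at 0.61.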

How the results depend on the processing

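No paired analysis was possible because the replicate numbers of the skin mice were given in accession order and pair no Tsk2 mouse with a WT mouse. With all 8 mice 568 genes passed, 373 higher and 195 lower. Leaving out 1 mouse gave 0 to 1827 calls in all, 0 to 1013 higher and 0 to 814 lower. It was 0 without Tsk2 replicate 2, 3 or 4 or WT replicate 1, 2 or 3, and 1827 without WT replicate 4. The count moved by over 1.5 times with array weights (1342, of which 801 higher and 541 lower), in a fit over all 14 arrays (2814, of which 1610 and 1204) and without probes at repeated values (1123, of which 729 and 394). Quantile normalization gave 455 higher and 278 lower, and trended robust moderation 253 and 142. The number of lists with a median above 0 was 30 of 41 and stayed at 27 to 31 under every alternative run on it. Among single values, leaving out 1 mouse moved Ccl21a between -0.011 and 0.39, with -0.0055 without Tsk2 replicate 2 and -0.011 without WT replicate 4. Krt14 moved between -0.031 and 0.54, the median of basal epidermis between -0.0002 and 0.42, and that of lymphatic endothelium between -0.0055 and 0.26, each lowest without Tsk2 replicate 2. The sign also turned for lymphatic endothelium with exact zeros as missing (-0.40), B cells under quantile normalization (-0.073) and TGF-beta response with the most variable probe (0.12). Of the 41 list medians 8 had the opposite sign under at least 1 of 15 alternatives; beside these 4 they were dermal papilla (-0.16 to 0.21), Merkel cells (-0.24 to 0.44), neutrophils (-0.23 to 0.45) and erythroid cells (-0.59 to 0.25). Neither Ccl21a nor Krt14 passed the test with all mice, and the cause was not tested.

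Each group holds 4 mice of 1 age and sex. Brightness over background was not available here, so values of dim probes are marked only by their recurrence. Animal, litter, array and processing batch could not be told apart.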

Other observations

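Genes outside the lists were grouped after their values were seen. Of the 373 rises 35 were of listed genes. Among the others were genes of calcium handling in muscle: Jph1 and Jph2, which join the membranes of the calcium release unit, rose by 1.54 and 1.44, Trdn, triadin, by 1.44, Stac3 by 1.82 and Mrln, myoregulin, by 2.07. Trim63, the muscle ubiquitin ligase MuRF1, had 3.74, 4.56, 4.98 and 5.08 in Tsk2 skin, against 2.40, 3.03, 2.50 and 3.23 in WT skin, a difference of 1.80 ± 0.33 (limma adjusted p = 0.0327). Ccl17, a chemokine for T cells that bear CCR4, had -0.65, -0.18, -0.07 and -0.28 in Tsk2 skin, against -1.69, -3.16, -2.60 and -2.15 in WT skin, a difference of 2.11 ± 0.31 (adjusted p = 0.0243). Ccl24, an eosinophil chemokine, rose by 1.19, Il34, a ligand of the CSF1 receptor that supports Langerhans cells, by 1.23, and Tnfaip6, a hyaluronan-binding protein, by 1.95. Twist1 and Foxd1, transcription factors of mesenchyme, rose by 1.43 and 1.58.

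Among the falls outside the lists, Fbp1, the gluconeogenic fructose bisphosphatase, had 4.72, -0.78, 2.18 and -0.36 in Tsk2 skin, against 6.82, 6.89, 6.89 and 5.68 in WT skin, with a wide spread among the Tsk2 mice and a difference of -5.13 ± 1.09 (adjusted p = 0.0481). Ctse, an aspartic protease, had -2.61, -2.49, -3.43 and -3.52 in Tsk2 skin, against 2.26, 3.11, 2.59 and -0.48 in WT skin, and Gabrp, a GABA receptor subunit, had 1.80, 1.74, 1.41 and 1.36 in Tsk2 skin, against 6.41, 8.72, 6.03 and 3.76 in WT skin. The BMP family ligand gene Bmp8a fell by 4.20 on the log2 scale, and Smad6, an inhibitor of BMP signals, by 1.79. Wnt11 and Notch1 fell by 1.65 and 1.27. In all of these, WT replicate 4 was the lowest of the WT mice.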
